A study of Mus musculus with 1699 samples.

Results

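Ventral midbrain cells of embryonic day (E) 15.5 and E18.5 were compared in Pitx3eGFP/wt mice, which carry the eGFP coding sequence on 1 of their Pitx3 alleles. The members were chosen by genotype, age and depth. They are the heterozygous cells (labelled Pitx3tm1Mli heterozygote) of these ages with more than 100000 reads on genes. Every cell deposited for E15.5 passed, as did all but 4 of those for E18.5, which by their titles form 2 sets, 18_1 with 93 cells and 18_2 with 95. Of the 1699 cells of the series, the E15.5 cells made up 8.3%, the E18.5 cells 11.1% and both together 19.4%. The 4 cells left out had between 1534 and 4177 reads. At both stages tissue from several male and female animals was dissociated with the same neural tissue kit, and GFP-positive cells were sorted and sequenced one by one with Smart-seq2, a method that reads whole polyadenylated transcripts. Both groups carry the same reporter allele and differ in age, and also in spike-in RNA. Synthetic ERCC RNA was added to the lysis buffer at E18.5 and was absent at E15.5, so stage and spike-in cannot be told apart in these cells. Heterozygous cells of E13.5 (no spike-in) and of postnatal day 1 (without and with spike-in) are set beside them below. Animals are not named in the labels. Each stage therefore stands as a single sample and is described without tests, and the 95% intervals (exact Clopper-Pearson for a share, Newcombe for the difference of 2 shares) reflect counting error only.

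Midbrain dopamine neurons arise from the floor plate, leave the cell cycle early and then mature over the rest of gestation, while their axons grow to the striatum and cortex. Pitx3 and Nr4a2 are transcription factors that specify and maintain them. Tyrosine hydroxylase (Th) and dopa decarboxylase (Ddc) make dopamine, the vesicular transporter Slc18a2 loads it into vesicles, and the plasma membrane transporter Slc6a3 (Dat) takes it back up. The comparison addresses which of these and other neuronal genes differ between mid and late gestation, when the neurons are already born.

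Th, Slc6a3 and Ddc differed from one another in their ratios, as described below, and the sequence in front of each is shown for that reason. The 250 bases before the RefSeq start (GRCm38.p6) lie at chr7:142899996-142900245 on the minus strand for Th, chr13:73536497-73536746 on the plus strand for Slc6a3, and chr11:11898145-11898394 on the minus strand for one of 2 starts of Ddc. The window of the other Ddc start (chr11:11890409-11890658) held none of the motifs searched and is not shown. Capitals mark the cAMP response element TGACGTCA, a palindrome and hence the same on both strands, in Th, and the reverse complement TGACCTTT of the monomer element AAAGGTCA, which NR4A2 can bind, in Ddc. Both strands were searched, also for the bicoid-type element TAATCC. No match to these letters was found in the Slc6a3 window.
Th: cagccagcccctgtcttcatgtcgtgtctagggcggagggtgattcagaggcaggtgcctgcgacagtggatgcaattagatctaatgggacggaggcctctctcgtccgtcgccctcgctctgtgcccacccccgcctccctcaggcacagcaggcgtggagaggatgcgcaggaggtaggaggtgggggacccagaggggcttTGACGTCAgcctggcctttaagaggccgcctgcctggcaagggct
Slc6a3: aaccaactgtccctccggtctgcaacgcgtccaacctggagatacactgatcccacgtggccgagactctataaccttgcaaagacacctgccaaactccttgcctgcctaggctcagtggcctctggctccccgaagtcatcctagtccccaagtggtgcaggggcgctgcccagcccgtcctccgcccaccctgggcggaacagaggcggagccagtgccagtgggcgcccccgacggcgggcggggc
Ddc: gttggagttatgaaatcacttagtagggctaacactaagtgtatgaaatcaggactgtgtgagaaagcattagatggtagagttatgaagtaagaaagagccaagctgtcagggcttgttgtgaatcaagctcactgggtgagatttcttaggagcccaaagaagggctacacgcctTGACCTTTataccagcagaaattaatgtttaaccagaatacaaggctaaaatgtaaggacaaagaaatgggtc

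The capitals begin 45 bases before the Th start and 73 bases before this Ddc start. Of all 32851 RefSeq promoter windows of this length, 1.55% held TGACGTCA, 1.34% held AAAGGTCA and 6.25% held TAATCC. Among the 31 windows matched to genes of the neuropeptide list used below, 5 held TGACGTCA (Cartpt, Chgb, Pcsk1, Scg2 and Sst), as did 1 of 13 windows of the dopamine list (Th), 1 of 33 of the synaptic vesicle list (Syn1) and 0 of 29 of the lineage factor list. A match is a description of the sequence and not a site shown to be used.

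Reads on genes per cell ranged from 265568 to 4749011 at E15.5 (median 2083310) and from 240674 to 4893625 at E18.5 (median 1137280). Despite fewer reads, E18.5 cells had reads on more gene entries, with medians of 7582 against 6447, and after each cell was thinned to 100000 reads these were 5777 against 4384. The same thinned median was 5066 in heterozygous cells of postnatal day (P) 1 without spike-in and 5875.5 in those with it. All 8 pan-neuronal markers exceeded a mean RPKM (reads scaled to the length of the gene model and to the mapped reads of the cell) of 10 at both stages. At least 3 markers of 1 non-neuronal class were over an RPKM of 10 in 1 cell at E15.5 and 13 at E18.5. Of the latter, 5 held oligodendrocyte-lineage and 8 astrocyte or radial glia markers. Summed over 8 microglial markers the mean RPKM was 0.0897 and 0.807, with 6 and 5 of them without a read, and it stayed under 5 for the endothelial, erythroid and other-neuron lists. The same sum was 152.7 and 128.3 for the astrocyte and radial glia list, and 28.7 and 24.1 for the oligodendrocyte-lineage list. Mitochondrial reads made up a median 2.76% at E15.5 and 1.85% at E18.5. They were 2.79% at P1 without spike-in and 1.71% with it. The part of these differences in the results below was not tested.

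Differences between stages were taken as the log2 ratio of mean RPKM after adding 1 to each mean, E18.5 over E15.5, for the 8485 entries with a mean of at least 10 at either stage. Of these, 7118 reached the mean at both stages, 758 at E18.5 alone and 609 at E15.5 alone, and an entry of the last 2 kinds entered through the stage where it was higher. The counts and medians of the gene lists below therefore depend in part on this filter. Past 2-fold were 953 entries, of which 662 were higher at E18.5 (7.8% of all tested) and the rest lower (3.43%). The median ratio over all entries was -0.04. The share of cells with an RPKM over 10 was at least 25 points higher at E18.5 for 959 entries (11.3%) and at least 25 points lower for 16 (0.189%). When only the 54 E15.5 and 59 E18.5 cells with 4500 to 5500 entries detected after thinning were compared, 2.74% of entries were higher and 1.24% lower in share. These cells differed from the whole in number and set as well as in entries detected, since 42 of the 59 were of set 18_2, and the part of each was not tested. They are called mid-detection cells below, where the ratio in them is given for each gene past 2-fold whose ratio lay within 2-fold there or whose fold differed by over 1.5 times. Likewise, where the cell with the highest RPKM of a gene in a group moved its fold by over 1.5 times or ended a 2-fold difference, the ratio without that cell is given.

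**Figure D1:**
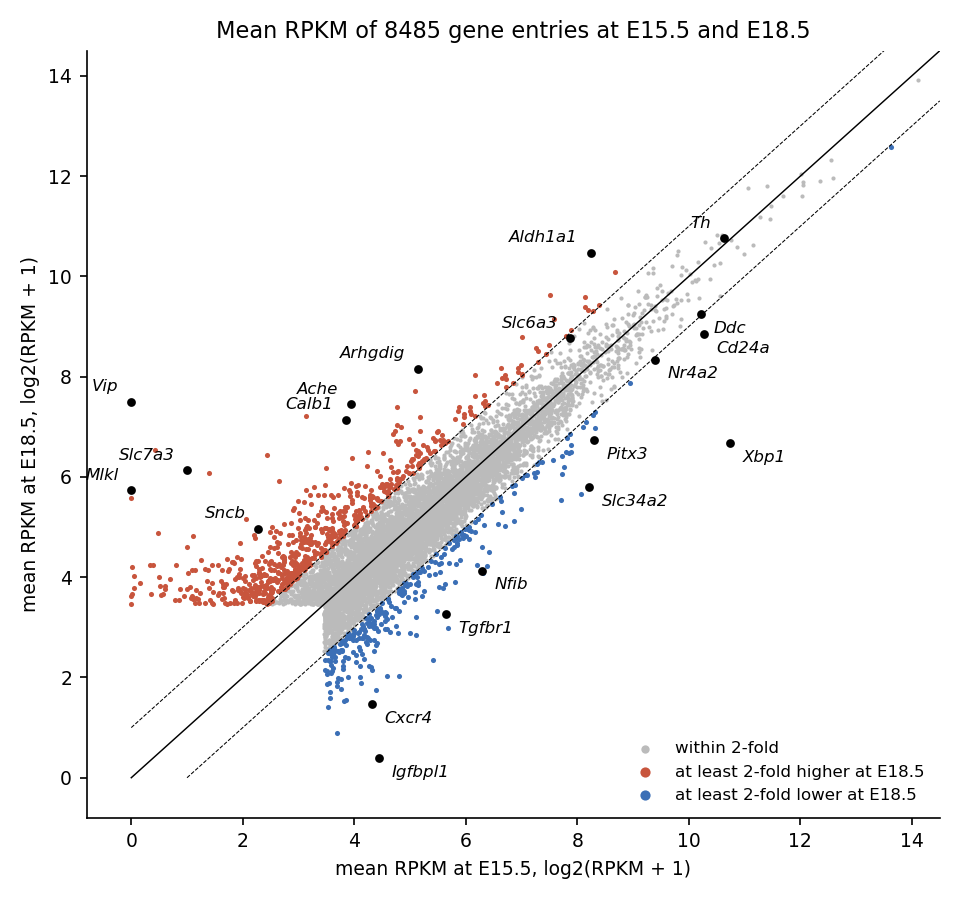
Mean RPKM of each tested gene entry at E15.5 (x axis) and E18.5 (y axis), both as log2(RPKM + 1), over the cells of each stage. The solid line marks equal means and the dashed lines a 2-fold difference, with the 662 entries past it in red above and the lower ones (3.43%) in blue below, and labelled genes in black. Calb1, Ache and Arhgdig lie far above the line, Th lies close to it, and Xbp1, Pitx3 and Cd24a lie below.

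Between the 2 sets of E18.5 cells 1.41% of entries differed by 2-fold or more, against 11.2% between stages. Of the entries called higher, 661 of 662 had the same direction in both sets and 530 were past 2-fold in both. Of those called lower, all had the same direction and 61.5% were past 2-fold in both. The 2 sets together make the E18.5 mean and were set against the same E15.5 cells, so a shared direction largely follows from the call. They also share stage and spike-in, and no label makes them separate animals. The heterozygous P1 cells were sequenced both without and with (94 cells) spike-in, and share no cell with the stage comparison. Between them 82 of the tested entries (0.966%) were at least 2-fold higher with spike-in and 3.95% at least 2-fold lower. Of the 662 entries higher at E18.5, 33 (4.98%) were also 2-fold higher in the spike-in cells at P1, and 4.53% were 2-fold lower. Of those lower at E18.5, 73 (25.1%) were also 2-fold lower there, and 1.37% were 2-fold higher. The P1 ratio was above 0 for 59.7% of the higher and 22.3% of the lower entries, against 46.3% of all tested. The P1 groups also differed in their cells, with non-neuronal markers in 24.1% without and 5.32% with spike-in and Th (RPKM over 150) in 56.5% and 71.3%, and the part of this in the P1 ratios was not tested. The P1 ratio is given below for each gene where it passed 2-fold in the direction of the stage difference.

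The genes of dopamine synthesis and transport differed among themselves. Of 13 tested of 14 listed, 4 were at least 2-fold higher at E18.5 and 0 lower, with a median ratio of 0.19. Among all entries tested 7.8% were higher and 3.43% lower. Th (ENSMUSG00000000214, chromosome 7 of GRCm38, 142892752 to 142931128), the rate-limiting enzyme, had a mean RPKM of 1584 at E15.5 and 1734 at E18.5. Single cells ran from 0 over a median of 1214 to 6660 at E15.5, and from 0 over 1819 to 7179 at E18.5, so that the stages overlapped throughout. Its ratio was 0.13, and its share of cells over an RPKM of 10 was 78% (95% interval 70.3 to 84.5) and 79.8% (73.3 to 85.3), a difference of 1.77 points (-6.96 to 10.9).

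Slc6a3 (ENSMUSG00000021609, chromosome 13, 73536747 to 73578672) exceeded an RPKM of 10 in 49 E15.5 cells (34.8%) and in 57.4% of E18.5 cells, which is 22.7 points more (11.8 to 32.7). The mean RPKM was 233.5 and 433.5, with a median cell at 0.681 and 53.3. Among the cells over 10, the mean was 671 at E15.5 and 754 at E18.5, so the higher mean went mostly with more cells. Thinning, which evens reads per cell but not the number of entries detected, left both shares at 34.8% and 57.4%. The share was 63.4% in set 18_1 and 51.6% in 18_2. Its ratio between stages lay within 2-fold. At P1 the ratio between spike-in groups was 0.96, no smaller than that between stages, and 0.60 among Th cells.

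Ddc (ENSMUSG00000020182, chromosome 11, 11814101 to 11898144) lay on the other side, with a mean RPKM of 1186 at E15.5 and 604 at E18.5 and a ratio of -0.97, just inside 2-fold. Cells ran from 2.08 over a median of 1083 to 3550 at E15.5 and from 0 over 566 to 2038 at E18.5. Its ratio at P1 between spike-in groups was 0.05. Slc18a2 had means of 431.6 and 270.8 (ratio -0.67), and here the P1 spike-in ratio had the opposite sign (1.34). The gene was over an RPKM of 10 in 87.9% and 83% of cells.

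Of the genes that end or sense the dopamine signal, Maoa and Drd2 were past 2-fold higher at E18.5, while Slc6a3 lay within 2-fold. Maoa, a monoamine oxidase that breaks dopamine down, had a mean RPKM of 4.26 and 18.9 and was over 10 in 9.22% and 39.4% of cells, a difference of 30.1 points (21.2 to 38.2). Drd2, the receptor that acts as autoreceptor on these neurons, had means of 14.1 and 51.3, with 19.1% and 48.9% of cells over 10 and a ratio of 1.79 in both E18.5 sets but of 0.65 in the mid-detection cells. That of Maoa was 1.92 overall and 1.13 there, and Maoa passed the filter only through its mean at E18.5. Pcbd1 and Spr, which recycle and make the tetrahydrobiopterin cofactor of Th, had ratios of 1.29 and 1.15, and Spr one of 0.79 in the mid-detection cells. The other cofactor enzymes lay within 2-fold, with ratios of 0.08 for Gch1, -0.31 for Pts and 0.19 for Qdpr. None of the 4 genes past 2-fold was past it in the same way between the P1 groups.

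**Figure D2:**
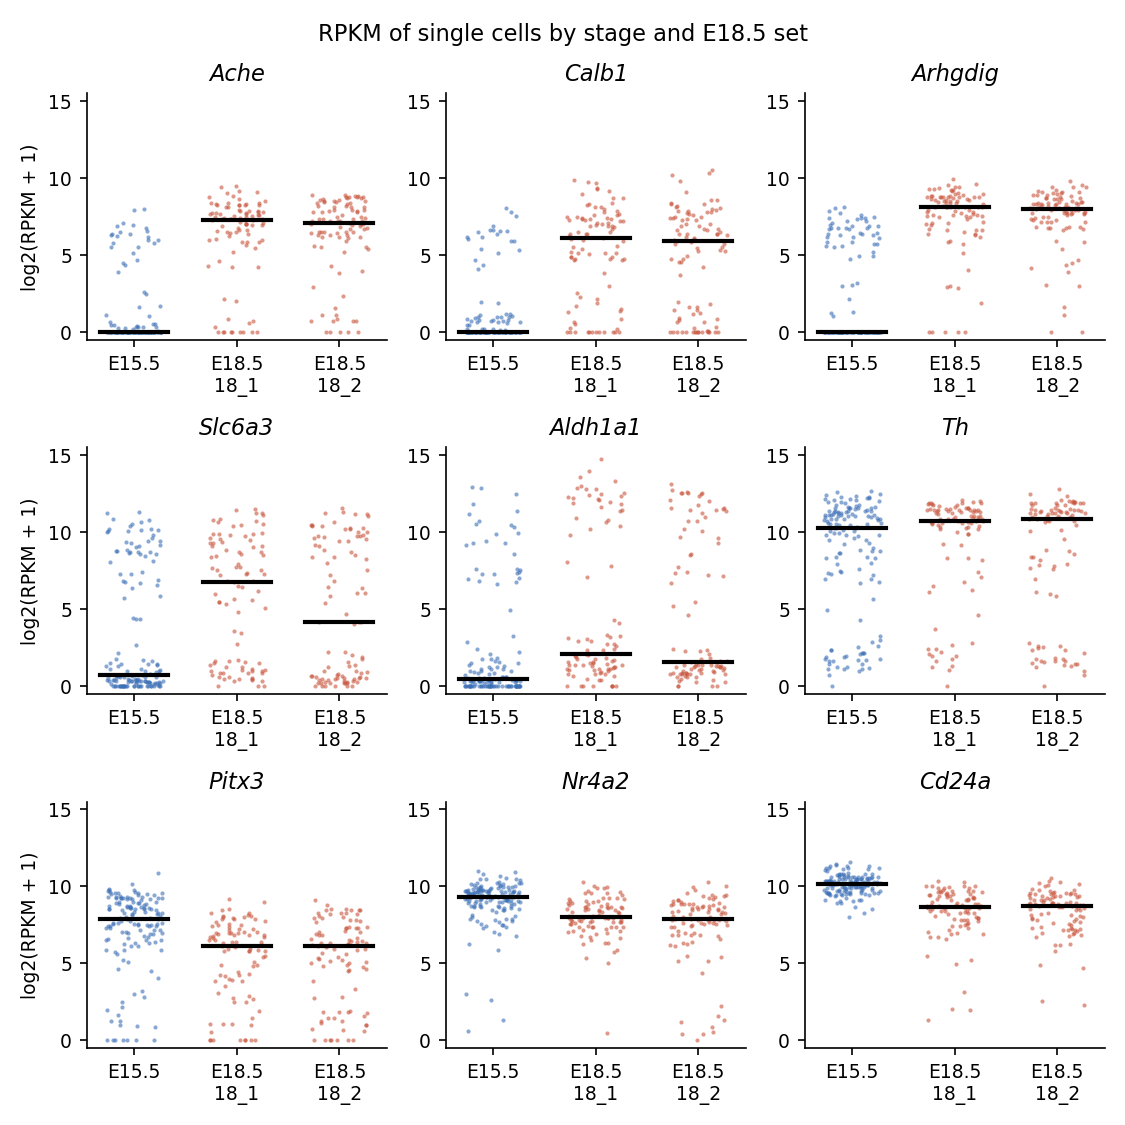
RPKM of each single cell as log2(RPKM + 1) (y axis) for 9 genes, in the E15.5 cells (blue) and the 93 and 95 E18.5 cells of sets 18_1 and 18_2 (red), with the median as a black bar. Ache, Calb1 and Arhgdig have a median at or near 0 at E15.5 and above 50 RPKM in both E18.5 sets, Th lies at a like level, and Pitx3, Nr4a2 and Cd24a lie lower at E18.5.

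The cells with a Th RPKM over 150 made up 72.3% at E15.5 and 73.9% at E18.5, leaving 39 and 49 cells with less. Within them Slc6a3 was over 10 in 45.1% (35.2 to 55.3) and 76.3% (68.3 to 83.1), and Drd2 in 26.5% and 63.3%. Among the cells with less Th, Slc6a3 was over 10 in 3 cells at E15.5 and 2 at E18.5. The stage difference in Slc6a3 was therefore seen within the Th cells, whose share differed little between stages.

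Among transcription factors of the dopamine lineage, more were past 2-fold lower than higher. Of 16 tested of 19 listed factors, 6 were at least 2-fold lower and 1 higher, with a median ratio of -0.81 (-0.73 with the eGFP reporter transcript, which was listed with them). Without Ebf2 and Ebf3, which the study picked from these cells, 4 of 14 tested were lower and 1 higher, with a median of -0.65. Among all entries tested 3.43% were lower and 7.8% higher. Pitx3 (ENSMUSG00000025229, chromosome 19, 46135685 to 46148326) had a mean RPKM of 314.5 at E15.5 and 105.8 at E18.5. Single cells ran from 0 over a median of 239.2 to 1831 and from 0 over 68.9 to 587, and 86.5% and 75% of cells were over an RPKM of 10. The ratio of -1.56 was -0.73 in the mid-detection cells, and the P1 spike-in ratio was 0.39. The eGFP transcript, made from the other Pitx3 allele and coding for the protein whose fluorescence was sorted on, had means of 199.5 and 123.1 (ratio -0.69).

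Nr4a2 (ENSMUSG00000026826, chromosome 2, 57106830 to 57124003) had a mean RPKM of 672 and 323.1 and a ratio of -1.05 (-0.70 in the mid-detection cells). It stayed over 10 in 97.2% and 94.7% of cells, so its lower mean went with lower levels in cells that still had it (692 and 341.2 among cells over 10). Lmx1a, a floor plate factor, had a ratio of -1.24 and Otx2, which is kept in ventral tegmental neurons, one of -1.14. The ratio of Otx2 was -0.11 in the mid-detection cells. The early B-cell factors differed among themselves, with ratios of -2.16 for Ebf2, -1.30 for Ebf3 and 0.85 for Ebf1 (1.95 in the mid-detection cells). Ebf2 was over 10 in 36.2% and 16% of cells.

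Foxa2, En1 and Lmx1b lay within 2-fold on the lower side, with ratios of -0.55, -0.58 and -0.73, and Foxa1 and Pbx3 on the higher side with 0.12 and 0.32. En2 was below the mean of 10 at both stages. Its share over 10 was nonetheless 35.5% at E15.5 and 7.98% at E18.5. Neurod6, the 1 factor past 2-fold higher (1.51), rested on set 18_1, with a ratio of 2.24 there and 0.03 in 18_2, and 0.03 in the mid-detection cells. Without the highest E18.5 cell it lay just within 2-fold. No member past 2-fold in this list was past it in the same way at P1.

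The study picked 12 transcription factors from these cells for its branches, of which Ebf2 and Ebf3 are counted above with the lineage factors. It found Zfhx3, Pou2f2 and Id4 enriched in the branch high in Slc6a3 and the rest in the branch low in it. The counts and medians here pool both branches. Of the other 10, 9 were tested, 4 were at least 2-fold lower and 1 higher, and the median ratio was -0.67. The shares of all entries were 3.43% lower and 7.8% higher. With Ebf2 and Ebf3 the counts were 6 lower and 1 higher of 11 tested, with a median of -1.17. Since they were chosen on these samples, the count is not independent evidence of their direction. Nfib (chromosome 4, 82290173 to 82705750), a nuclear factor I protein of late progenitors and neurons, had a mean RPKM of 77.6 and 16.5 and was over 10 in 66% and 34% of cells (difference -31.9 points, -41.6 to -21.1). It was also lower with spike-in at P1 (-1.66), as were Nfia (stage -1.47, P1 -2.12) and Zfp536 (stage -1.18, P1 -1.19). Zfp536 had a ratio of -0.44 in the mid-detection cells. For Tcf4 the stage ratio was -1.17 (-0.84 in the mid-detection cells) and the P1 ratio -0.69. These lower factors were all of the branch low in Slc6a3. Id4, an inhibitor of basic helix-loop-helix factors and one of those enriched in the other branch, was higher at E18.5. It had means of 1.16 and 27.2, and 4.26% and 27.1% of cells over 10. Its ratio was 3.70, and 2.89 in the mid-detection cells, where that of Nfib was -1.45 (-2.16 overall). The P1 ratio of Id4 was 0.50, that of Nfia was -1.22 among Th cells, and that of Zfp536 was -0.84 without 1 cell of the group without spike-in.

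Genes that tell dopamine neuron subtypes apart were the group with the highest median ratio among lists of at least 7 tested genes (1.30). Of 20 tested of 30 listed, 10 were at least 2-fold higher at E18.5 and 0 lower (7.8% and 3.43% of all entries). Several of these genes were singled out by the study in the same cells, so that the count is not independent evidence of their direction. Among the higher members, Vip, Ntf3, Tacr3 and Cadps2 passed the filter only through their mean at E18.5. The means of the last 3 at E15.5 were 0.999, 1.13 and 1.58. The count and the median therefore depend in part on the filter. Calb1 (ENSMUSG00000028222, chromosome 4, 15881264 to 15908064), a calcium buffer of ventral tegmental and dorsal nigral neurons, had a mean RPKM of 13.4 and 140. Single cells ran from 0 over a median of 0 to 274.2 at E15.5 and from 0 over 64.4 to 1499 at E18.5. It was over 10 in 21 cells at E15.5 (14.9%, 9.46 to 21.9) and 130 at E18.5 (69.1%, 62 to 75.7), with thinned shares of 14.9% and 68.1%. The ratio of 3.29 was 3.27 and 3.31 against the E18.5 sets and 2.38 in the mid-detection cells, and the P1 spike-in ratio was 0.20.

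Vip (ENSMUSG00000019772, chromosome 10, 5639218 to 5647617), a neuropeptide of a small dopamine neuron group, had no read in any E15.5 cell, which allows up to 2.13% of cells with a read (3 counts of the total) and does not limit the share of cells that express it. At E18.5 it held 49946 reads and was over an RPKM of 10 in 31 cells (16.5%, 11.5 to 22.6). Against a floor of 3 reads over the E15.5 group its read share was at least 20642-fold higher. High values were in few cells, with a median RPKM of 1.01 and a highest of 5820, and 29 of the 31 cells over 10 were Th cells.

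Aldh1a1 (ENSMUSG00000053279, chromosome 19, 20492715 to 20643465), a retinoic acid enzyme of ventral nigral neurons, had a mean RPKM of 300.9 and 1420. Its cells ran from 0 over a median of 0.367 to 7962 at E15.5 and from 0 over 2.61 to 27287 at E18.5, so that most cells were low at both stages. Shares over 10 were 21.3% and 37.8%, a difference of 16.5 points (6.51 to 25.8). Among cells with Slc6a3 the share was 44.9% (30.7 to 59.8) at E15.5 and 49.1% (39.3 to 58.9) at E18.5, and among cells without it 8.70% and 22.5%. Its mean among cells over 10 was 1412 and 3757. Aldh1a1 was also over 2-fold higher with spike-in at P1 (1.30).

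Ntf3, a neurotrophin, was over 10 in 2 cells at E15.5 (1.42%) and 43 at E18.5 (22.9%), all 43 of them Th cells, with a ratio of 3.60. The neurokinin receptor Tacr3 had a ratio of 3.05. Both were past 2-fold the same way at P1 (1.80 and 1.23). Cadps2, a secretion factor, had a ratio of 2.76 and was likewise past 2-fold at P1 (1.60), which made 4 of the 10 higher subtype genes so. The calcium buffer Calb2 had a ratio of 2.63, and of 1.56 in the mid-detection cells, where Ntf3, Tacr3 and Cadps2 were at 3.0, 2.15 and 2.15. Gad2, which makes GABA, and Nxph4 gave their names to groups of the study low in Slc6a3, some of them with Th. Both genes lay within 2-fold (0.54 and -0.70), Nxph4 at -1.31 in the mid-detection cells. Among Th cells Gad2 was over 10 in 8.82% and 9.35%, against 28.2% and 44.9% of cells with less Th. For Nxph4 these shares were 19.6% and 16.5%, against 48.7% and 53.1%. Gad2 was over 10 in 14.2% and 18.6% of cells (difference 4.43 points, -3.89 to 12.3), and Nxph4 in 27.7% and 26.1% (difference -1.60 points, -11.4 to 7.90). Slc17a6, the vesicular glutamate transporter, had a ratio of -0.10.

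Among genes of immature neurons, more were past 2-fold lower than higher. Of 22 tested of 28 listed, 6 were at least 2-fold lower and 1 higher (3.43% and 7.8% of all entries), with a median ratio of -0.35. Igfbpl1 (chromosome 4, 45809468 to 45826923), a marker of newborn neurons, had a mean RPKM of 20.8 and 0.310 and was over 10 in 24 cells at E15.5 and 1 at E18.5. Cd24a (ENSMUSG00000047139, chromosome 10, 43578284 to 43584265), a surface glycoprotein of young neurons, was over 10 in nearly every cell at both stages and differed in level. Its cells ran from 260 over a median of 1155 to 3108 at E15.5 and from 1.51 over 416 to 1501 at E18.5, with means of 1231 and 460. Draxin, an axon repellent, had a ratio of -1.90. Nrep, which is high in growing neurons, lay just within 2-fold (-0.94, means 1507 and 784). The study picked Cd24a and Nrep as early genes in cells that include these, so their direction here is not independent evidence. Stmn4, a microtubule-destabilising stathmin, was the 1 member past 2-fold higher, with means of 310.9 and 638, and Dcx, Stmn1 and Gap43 had ratios of -0.88, -0.16 and 0.12. Among those past 2-fold, Neurod1 (-1.17) was also lower with spike-in at P1 (-1.16), and its stage ratio among Th cells was -0.08. Without the highest cell its ratio was -0.75 between stages and -0.91 at P1.

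Tubulins and other cytoskeletal genes lay close to 0, with a median of 0.01 over 18 tested of 22 listed. The tubulin Tuba4a (2.07, and 2.73 in the mid-detection cells, 3.55% and 26.1% of cells over 10) was at least 2-fold higher and none lower. These counts lay near the shares of all entries (7.8% higher and 3.43% lower). Only 7 of 28 cell cycle and progenitor genes were tested, since the proliferation genes Mki67 and Top2a were below a mean of 10 at both stages. Of the 7, 2 were lower and 1 higher (median -0.48). Both directions occurred among inhibitors of cyclin-dependent kinases. Cdkn1c had means of 65.3 and 26.1, with 66.7% and 35.1% of cells over 10, and Cdkn1a had means of 25.4 and 120, with 26.2% and 78.2%. Vim, an intermediate filament of progenitors and glia, had means of 211.6 and 65.2 and was also lower with spike-in at P1 (-1.59). In the mid-detection cells the ratios of both lower members were within 2-fold, at -0.87 for Cdkn1c (-1.29 overall) and -0.89 for Vim (-1.68), and that of Cdkn1a was 1.41 (2.19).

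Chromatin genes tied to neuronal maturation had a median of -0.41 over 20 tested of 23 listed, with 2 at least 2-fold lower and 0 higher (3.43% and 7.8% of all entries). Both were also past 2-fold lower with spike-in at P1. One of them, the BAF subunit Dpf3, had a stage ratio of -1.82 and a P1 ratio of -1.86. Of 13 heterochronic and oncofetal genes 2 were tested, Dlk1 (0.25) and Hmga1 (0.83), with a median of 0.54 and none past 2-fold.

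**Figure D3:**
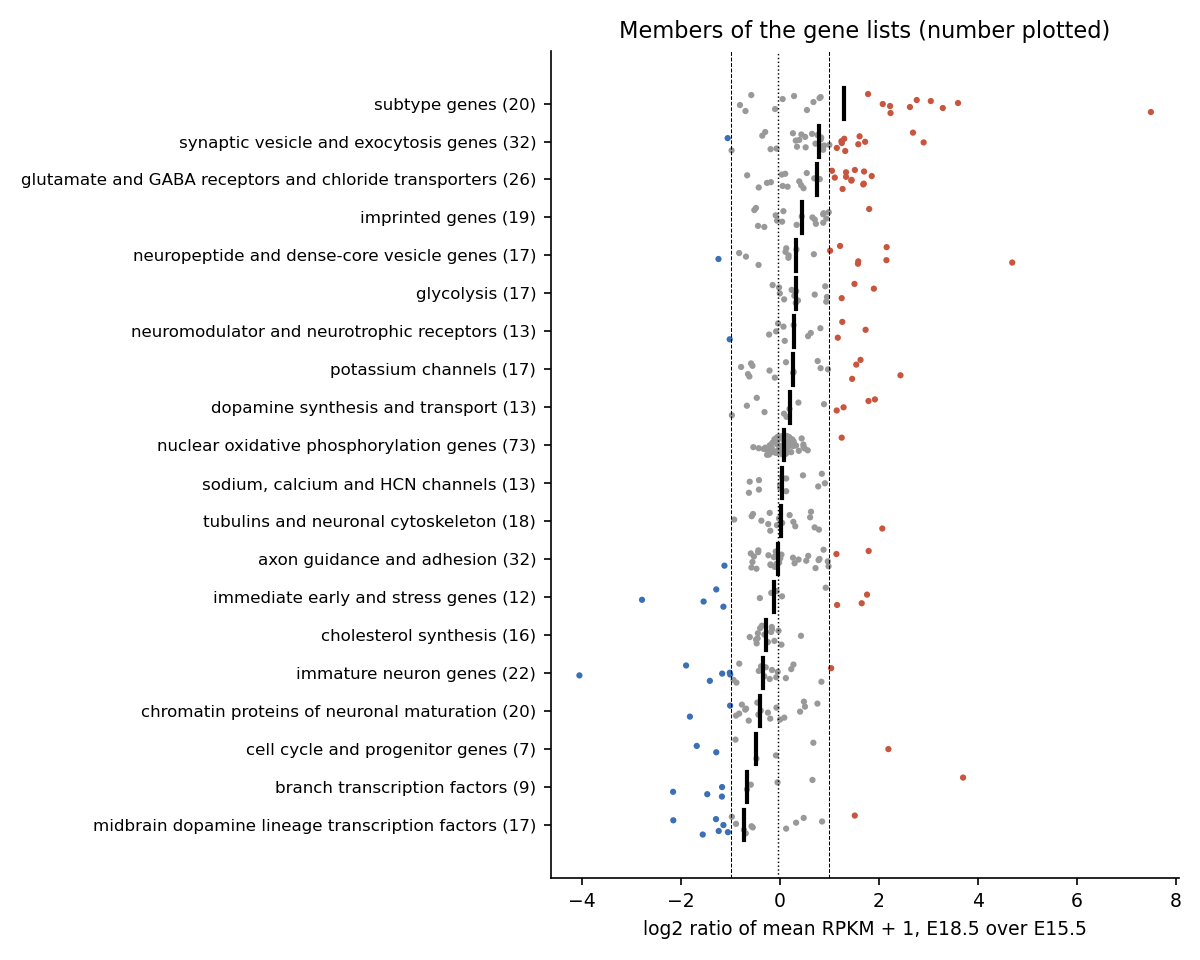
Log2 ratio of mean RPKM + 1, E18.5 over E15.5 (x axis), for each tested member of the gene lists with at least 7 tested members, 1 list per line with that number in brackets. Black bars are list medians, dashed lines mark 2-fold and the dotted line is the median of all 8485 entries (-0.04). Members that passed the filter through 1 stage only are included. Subtype, synaptic vesicle and receptor genes have the highest medians (1.30, 0.79 and 0.75) and the lineage and branch transcription factors the lowest (-0.73 with the eGFP entry, and -0.67 without Ebf2 and Ebf3).

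Genes of synaptic vesicles and exocytosis had a median of 0.79. Of 32 tested of 38 listed, 10 were at least 2-fold higher and 1 lower (7.8% and 3.43% of all entries). Sncb (ENSMUSG00000034891, chromosome 13, 54758860 to 54766595), beta-synuclein, had a mean RPKM of 3.85 and 30.3. It passed the filter only through its mean at E18.5. It was over 10 in 9.93% of cells (5.54 to 16.1) and 72.3% (65.4 to 78.6), and thinned shares were 11.3% and 59.6%. The study picked Sncb as a late gene in cells that include these, so its direction here is not independent evidence. The vesicle protein Syngr1 was over 10 in 34.8% and 92.6% of cells (means 20.2 and 68.9). Synpr, another vesicle membrane protein, had a ratio of 2.90 (2.08 in the mid-detection cells), and the active zone protein Rims3 one of 1.61. Core proteins of vesicles and fusion were past 2-fold too, with ratios of 1.32 for Syt1, 1.25 for Syp and 1.15 for Snap25. These were 0.79, 0.79 and 0.63 in the mid-detection cells. Rab3c was the 1 member past 2-fold lower (-1.06, and -0.89 in the mid-detection cells). No member past 2-fold was past it the same way at P1.

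Receptors for glutamate, GABA and glycine with the chloride transporters had a median of 0.75. Of 26 tested (40 listed), 12 were at least 2-fold higher and 0 lower (7.8% and 3.43% of all entries). Gabrb1, a GABA-A receptor subunit, was over 10 in 7.80% and 51.1% of cells (means 6.03 and 24.4). Glra2, the fetal glycine receptor subunit, had means of 8.84 and 31, and the kainate receptor Grik1 had a ratio of 1.69. Gabrb1 and Glra2 passed the filter only through their mean at E18.5. Slc12a5 (KCC2), the chloride exporter that sets the response to GABA, had a ratio of 1.51. Other GABA-A subunits ran from -0.66 for Gabrb2 to 1.34 for Gabra5. In the mid-detection cells the ratios of Glra2, Slc12a5 and Gabra5 were within 2-fold, at 0.41, 0.79 and 0.71, while Grik1 and Grin3a were at 2.33 and 2.36. Grin3a, a subunit of NMDA receptors, was higher by 1.68 at E18.5 and lower with spike-in at P1 (-1.79).

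Ion channel lists are given beside the background of 7.8% higher and 3.43% lower entries. Of 13 tested of 31 listed sodium, calcium and HCN channel genes none was past 2-fold, with a median of 0.03, and the fetal sodium channel Scn3a had a ratio of -0.63. Of 17 tested of 42 listed potassium channel genes 4 were higher and 0 lower (median 0.27). These were Kcnc4 (2.44), Kcnt1 (1.63), Kcnmb4 (1.54) and Kcna6 (1.46), which was over 10 in 14.9% and 48.9% of cells. Kcnt1 had a ratio of 0.58 and Kcnc4 one of 1.45 in the mid-detection cells. Kcnmb4 has several entries under 1 identifier, so its value is uncertain.

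Neuropeptide and dense-core vesicle genes had a median of 0.33, with 7 of 17 tested (26 listed) at least 2-fold higher and 1 lower (7.8% and 3.43% of all entries). Tac1, the precursor of substance P, had a mean RPKM of 1.62 and 67, and single E18.5 cells reached 3561. It passed the filter only through its mean at E18.5. The difference was uneven between sets, with ratios of 2.53 (18_1) and 5.51 (18_2), and was 1.68 among Th cells. Pdyn, the dynorphin precursor, and Vgf, a granin, had ratios of 2.15 and 2.16, with 2.84% and 19.7% of cells over 10 for Pdyn. Penk, the enkephalin precursor, had a ratio of 1.58 in all cells and -1.23 in the mid-detection cells, where that of Vgf was 1.09, of Pdyn 2.89 and of Tac1 5.85 (4.70 overall). Without the highest E15.5 cell the ratio of Penk was 3.22. Sst, somatostatin, was the 1 member lower (-1.24). It rested on few cells, 5 at E15.5 (3.55%) and 10 at E18.5 (5.32%) over 10, with ratios of -0.53 and -2.65 against the sets, -4.47 in the mid-detection cells, -0.66 without the highest E15.5 cell and -3.06 without the highest E18.5 cell.

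Receptors for neuromodulators and neurotrophic factors had a median of 0.27, with 3 of 13 tested (28 listed) higher and 1 lower (7.8% and 3.43% of all entries). Among the co-receptors of the GDNF family, Gfra1 was lower (ratio -1.02, 83% and 69.1% of cells over 10) and Gfra2 higher (18.8 and 43.5, ratio 1.17), while their shared partner Ret had a ratio of 0.10. The neurotensin receptor Ntsr1 was over 10 in 7.80% and 39.4% of cells, and in 8.82% and 48.2% of Th cells. Ghr, the growth hormone receptor, had a ratio of 1.26. In the mid-detection cells the ratios of Gfra1, Gfra2 and Ghr were within 2-fold, at -0.54, 0.53 and 0.45. Without the highest E15.5 cell Gfra1 was at -0.99. Axon guidance and adhesion genes had a median of -0.04, equal to that of all entries, with 2 of 32 tested (50 listed) higher, Cdh8 (1.79) and Cntn1 (1.14), and 1 lower, Slit2 (-1.12, P1 -1.34). Both counts lay near the shares of all entries (7.8% higher and 3.43% lower). Cdh8 and Cntn1 were within 2-fold in the mid-detection cells (0.94 and 0.93). The guidance receptors Dcc and Robo1 had ratios of -0.48 and -0.58.

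Energy genes are given by pathway, and the difference between pathways was not tested. Among all entries 7.8% were higher and 3.43% lower. Of 73 tested of 74 listed nuclear genes of oxidative phosphorylation, 72 lay within 2-fold (median 0.09) and 1, the ATP synthase subunit Atp5g1, was higher (means 16.8 and 41.3, ratio 1.25, and 0.62 in the mid-detection cells). In glycolysis 3 of 17 tested (19 listed) were higher and 0 lower (median 0.33). These were Eno2, the neuronal enolase (27.3 and 104.4, over 10 in 25.5% and 70.2% of cells), the neuronal glucose transporter Slc2a3 (1.51) and the phosphofructokinase Pfkp (1.25, over 10 in 41.8% and 92%). None of the 16 tested of 20 listed genes of cholesterol synthesis was past 2-fold, with a median of -0.28, and 2 of the 16 had a ratio above 0.

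Imprinted genes had a median of 0.44, with 1 of 19 tested (28 listed, 25 matched) higher, Zdbf2 (1.80, and 2.58 in the mid-detection cells), and 0 lower. These counts lay near the shares of all entries (7.8% higher and 3.43% lower). The maternally imprinted Mkrn3 was over 10 in 22% and 50% of cells with a ratio of 0.94. The study picked Mkrn3 as a gene of intermediate stages in cells that include these, so its direction here is not independent evidence. Of the MHC class I and interferon genes, 3 of 17 were tested and 2 were higher (median 1.18), B2m (means 7.21 and 17.6) and Tapbp (6.69 and 16.9). Their ratios were 1.83 and 0.58 in the mid-detection cells. B2m and Tapbp passed the filter only through their mean at E18.5, so the count and the median depend in part on the filter. B2m was lower with spike-in at P1 (-3.01), where the cells without spike-in held 46 cells with non-neuronal markers (24.1%). The 2 tested of 6 listed genes of the sex chromosomes lay within 2-fold (median -0.38).

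Immediate early and stress genes went both ways, with a median of -0.12. Of 12 tested (28 listed), 4 were at least 2-fold lower and 3 higher (3.43% and 7.8% of all entries). All 4 lower members were also past 2-fold lower with spike-in at P1. Ier2 had a stage ratio of -2.79 and a P1 ratio of -3.73, Fos -1.15 and -4.13, and the heme oxygenase Hmox1 -1.29 and -1.28. Egr1 had ratios of -1.55 and -3.71, but its stage ratio was within 2-fold without the cells holding non-neuronal markers (-0.96) and among Th cells (-0.74), it was over 10 in 14.2% and 10.6% of cells, and 1 E15.5 cell reached 884 against a mean of 17.7. Without the highest E15.5 cell of each, the stage ratios of Egr1, Fos and Hmox1 were within 2-fold (-0.96, -0.94 and -0.95). Among Th cells the P1 ratios of Egr1 and Fos were -2.20 and -2.77, and that of Egr1 was -4.75 without the highest spike-in cell. None of the 3 higher members was past 2-fold higher there. They were the heat shock gene Hspa1a (1.76, P1 0.19), Jund (1.65, P1 0.96) and Jun (1.15, P1 -0.33). In the mid-detection cells Jun was within 2-fold (0.88), while Ier2, Egr1, Fos and Hmox1 were at -3.38, -2.58, -1.75 and -1.96.

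Outside these lists, genes with the highest ratios by the fixed ranking were of several kinds. Ache (ENSMUSG00000023328, chromosome 5, 137287519 to 137294466), acetylcholinesterase, which midbrain dopamine neurons also release, had a mean RPKM of 14.4 and 174.2. Cells ran from 0 over a median of 0 to 254.9 at E15.5 and from 0 over 145.6 to 727 at E18.5. It was over 10 in 24 cells at E15.5 (17%, 11.2 to 24.3) and in 84% at E18.5 (78 to 89), with 83.9% and 84.2% in the sets. Unlike Slc6a3, the share over 10 was high among E18.5 cells with little Th as well (89.8%, against 82% of Th cells). At P1 it was over 10 in 68.6% of cells without spike-in and 90.4% with it.

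Arhgdig (chromosome 17, 26199183 to 26207786), a GDP-dissociation inhibitor of brain, was over 10 in 30.5% and 92% of cells (means 34.2 and 285.3). Hpca, the calcium sensor hippocalcin, had a ratio of 3.28 and was over 10 in 9.93% and 66.5%. The adrenergic receptor Adra1b (3.32), the copine Cpne2 (3.10) and the adhesion receptor Adgra1 (3.08) were over 10 in 31.9%, 33% and 30.9% of E18.5 cells and in 2.13%, 1.42% and 1.42% of E15.5 cells. Slc7a3, a cationic amino acid transporter, had means of 1.00 and 69, and a P1 ratio of 1.06. One E15.5 cell of 128.3 carried most of the first mean, and the ratio of 5.13 was 6.0 without it, while the P1 ratio was 0.94 without the highest spike-in cell. Lin7b, a synaptic scaffold protein, had a ratio of 3.09 and a P1 ratio of 1.07. Csf2rb2, a cytokine receptor subunit, had a ratio of 3.91 and a P1 ratio of -1.69. In the mid-detection cells Adgra1, Cpne2, Lin7b, Arhgdig and Csf2rb2 had ratios of 1.27, 1.96, 1.92, 2.23 (3.02 overall) and 5.05. The P1 ratio of Lin7b was 0.84 among Th cells and 0.88 without the highest spike-in cell.

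By share of cells, Faim2, Fxyd7, Selenom and Tmem91 joined Ache and Arhgdig among the 10 genes with the largest gain. Fxyd7, a regulator of the sodium pump, was over 10 in 28.4% and 86.2% of cells, and the apoptosis inhibitor Faim2 in 17% and 75.5%. Selenom, a selenoprotein, stood at 19.1% and 77.1%, and Tmem91 at 12.1% and 70.2%. Their differences in share ran from 57.8 to 58.5 points, and none had a P1 ratio past 2-fold. Fxyd7 and Tmem91 had stage ratios of 2.62 and 2.42, and of 1.95 and 1.68 in the mid-detection cells.

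**Figure D4:**
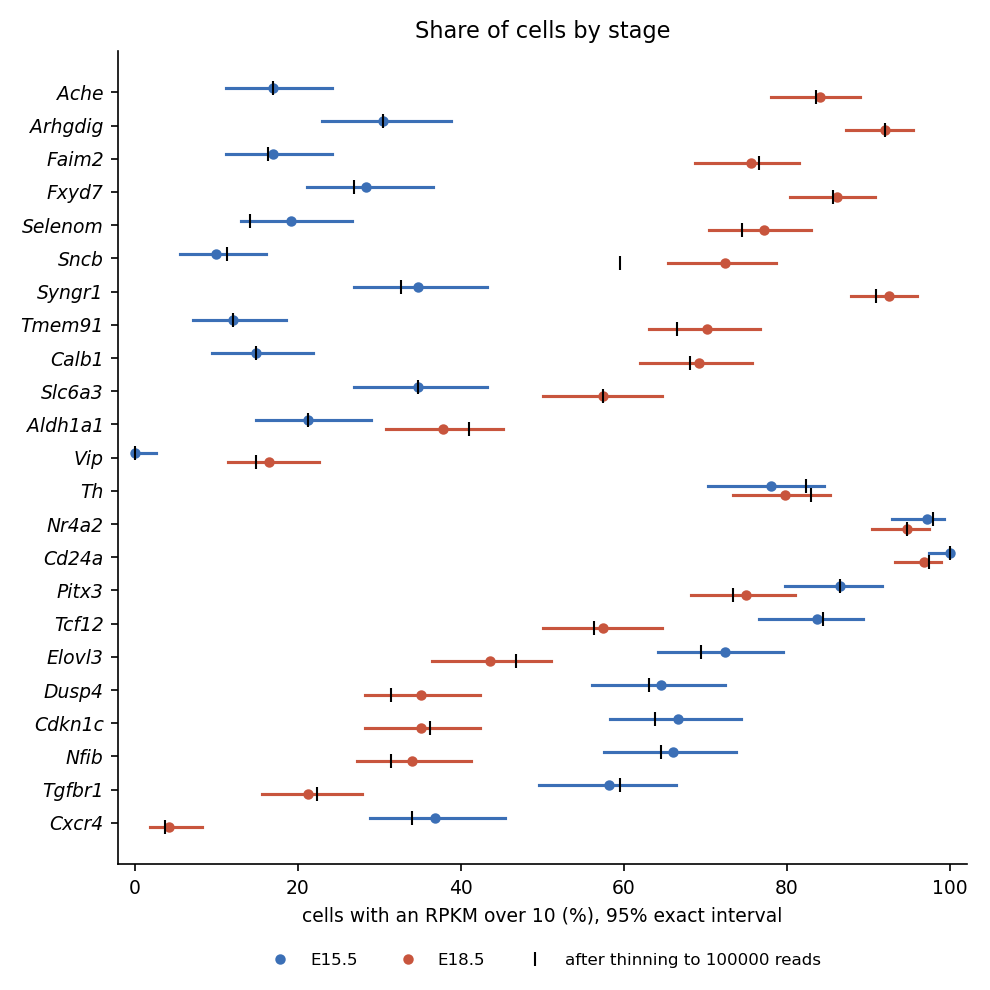
Share of cells with an RPKM over 10 (x axis, in %) at E15.5 (blue) and E18.5 (red) with the exact 95% interval, and the share after thinning each cell to 100000 reads as a black tick. The intervals of Th, Nr4a2 and Cd24a overlap or touch between stages, Ache lies at 17% and 84%, and Cxcr4 at 36.9% and 4.26%.

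Genes lower at E18.5 outside the lists were fewer. Tgfbr1, a TGF-beta receptor, had means of 49.2 and 8.59 and was over 10 in 58.2% (49.6 to 66.4) and 21.3% (15.7 to 27.8) of cells. Pdzrn3, a ubiquitin ligase of synapses, had a ratio of -2.23, and the lipid-presenting Cd1d1 one of -2.16. Adgrv1 and Inafm2 had ratios of -2.12 and -2.04. Cd1d1 and Adgrv1 were at -1.24 and -1.26 in the mid-detection cells, where Tgfbr1, Cxcr4 and Tcf12 were at -1.74 (-2.39 overall), -1.90 (-2.85) and -1.79. Cxcr4, the chemokine receptor that guides migrating neurons, was over 10 in 36.9% and 4.26% of cells (means 19 and 1.77), and was also lower with spike-in at P1 (-1.27). The basic helix-loop-helix factor Tcf12 was alike in this (stage -2.42, P1 -1.35).

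By share, Dusp4, a MAP kinase phosphatase (64.5% and 35.1%), Elovl3, a fatty acid elongase (72.3% and 43.6%), and the histone demethylase Kdm6b (55.3% and 28.7%) were lower too. The remaining entries of this kind were short. The small nucleolar RNA Snord32a (43.3% and 6.38%) was at 0% at both stages after thinning, and was also lower with spike-in at P1 (stage -2.70, P1 -1.73), as was mt-Ta below (stage -1.96, P1 -1.71). Among Th cells these P1 ratios were 0.24 and -0.95, and that of Snord32a was -0.80 without 1 cell of the group without spike-in. The mitochondrial tRNA genes mt-Ta (51.1% and 23.4%) and mt-Tt (51.1% and 23.9%) were at 11.3% and 3.72%, and 17.7% and 8.51%, after thinning.

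Some of the largest differences followed the spike-in. Mlkl (ENSMUSG00000012519, chromosome 8, 111311797 to 111338177), the pseudokinase of necroptosis, had no read in any E15.5 cell or any P1 cell without spike-in, and reads in every E18.5 cell and in all 94 P1 cells with it. At E18.5 it held 16588 reads, a median RPKM of 37.8 and a read share at least 6856-fold higher than the floor of 3 reads over the E15.5 group. At E13.5, without spike-in, 2 of 140 cells had a read. Its ratio was 5.73 between stages and 6.15 at P1. Whether these reads came from transcripts of Mlkl or from material added with the spike-in was not tested, and the same holds for Tesmin. Tesmin had the same pattern, with reads in 97.3% of E18.5 and 96.8% of P1 spike-in cells, 0% at E15.5 and 4.19% of P1 cells without. By a limit of 90% of cells with a read in both spike-in groups and 10% in each group without, these were the 2 entries found, and the reverse pattern gave 0. Fanci (stage 2.75, P1 3.16) and Svep1 (stage 2.31, P1 1.33) were less complete. The stage ratio of Fanci was 3.77 without its highest E15.5 cell and 1.96 in the mid-detection cells. Fanci was read in 98.9% of E18.5 cells and 9.93% at E15.5.

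Xbp1 (ENSMUSG00000020484, chromosome 11, 5520659 to 5525893), a transcription factor of the unfolded protein response, had the lowest ratio of the named genes (-4.07). Its cells ran from 401 over a median of 1627 to 7700 at E15.5 and from 0 over 87.2 to 546 at E18.5. The means were 1712 at E15.5, 100.9 at E18.5, 4566 at E13.5, and at P1 1855 without and 121.7 with spike-in, where the ratio was -3.92. Slc34a2, a phosphate transporter, had means of 296.5 and 54.6 (ratio -2.42, P1 -3.07). At P1 its ratio was -1.89 without the highest cell of the group without spike-in and -1.49 among Th cells, with medians of 91.3 without and 46.9 with spike-in, and it was over 10 in 59.7% and 100% of cells. The P1 ratio of Xbp1 among Th cells was -3.17. For Xbp1 the values went with the spike-in at P1 as well as with stage, and which of them the difference belongs to cannot be told apart between E15.5 and E18.5.

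**Figure D5:**
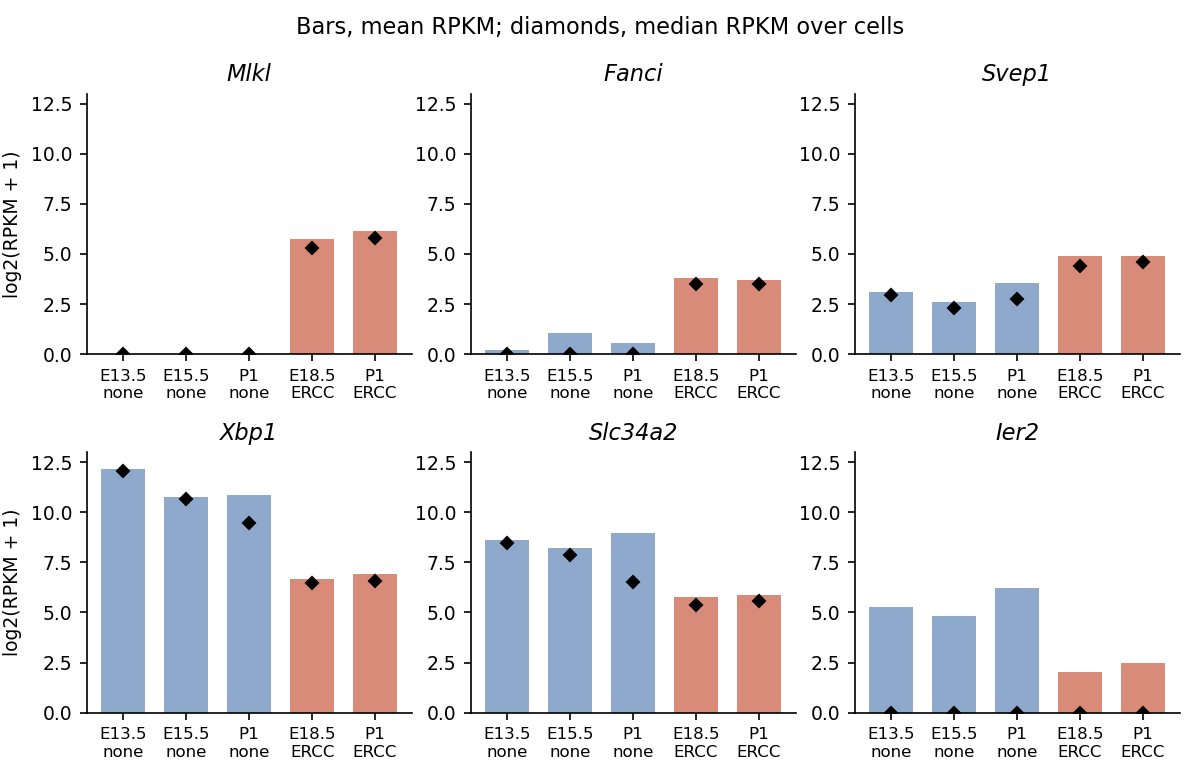
Mean (bars) and median (diamonds) RPKM over cells as log2(RPKM + 1) for 6 genes in heterozygous cells of E13.5, E15.5 and P1 without spike-in (blue) and of E18.5 and P1 with ERCC (red). Mlkl, Fanci and Svep1 are higher in both groups with spike-in, and Xbp1, Slc34a2 and Ier2 have higher means in the 3 groups without it, Xbp1 with 4566, 1712 and 1855 against 100.9 and 121.7.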

How the data were processed

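Single cells of Pitx3eGFP/wt ventral midbrain were measured by Smart-seq2. The authors aligned reads with STAR to mm10 merged with eGFP and ERCC sequences, kept uniquely mapping reads and deposited, for 39468 gene entries per cell, read counts that are not normalized. The deposited RPKM values were made by the authors with rpkmforgenes from Ensembl gene models, relative to gene length and to the mapped reads of the cell. Reads were not counted by strand or molecule, so overlapping genes and near-identical copies are uncertain. Of the entries, 38130 had a symbol in GENCODE vM21 (GRCm38), 0.216% of reads lay on the rest, 28 values had reads but an RPKM of 0, and 319 identifiers had several entries. Of 635 listed genes in 23 lists and the marker lists, 6 symbols were unmatched.

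Cells with over 100000 reads were kept. The 15% limit on genes detected, over the 28798 entries with a read in a kept cell, removed none and was an alternative. Doublets were not called. P1 cells holding 3 or more oligodendrocyte markers were left out, while such cells of E18.5 were kept. A stage was 1 sample, so precision is given only by depth and number of cells, and no model was fitted. Ratios used mean RPKM with a pseudocount of 1 and entries with a mean of at least 10 at either stage. Shares used an RPKM over 10, and thinning drew 100000 reads per cell. A ratio past 2-fold or a share difference of 25 points was called. Members and lists were chosen with earlier results of these data known. Named were the 12 entries per direction with the largest ratio and the 10 with the largest share difference (symbol not of a predicted gene or ribosomal protein, same sign in both E18.5 sets and in mean log2(RPKM + 1), over 10 in at least 25% of cells of the higher stage), up to 4 members past 2-fold per list and direction, the dopamine, lineage and branch lists, and Pitx3, eGFP, Th, Slc6a3, Aldh1a1, Vip, Nxph4, Gad2, Cd24a, Nrep, Mkrn3, Nrsn2 and Sncb, 134 in all. Tesmin, Fanci and further list members were named after their values were seen. Alternatives on detection, on P1 cells, on the highest cell of a gene, on the membership of the lineage and branch lists and on entries following the P1 contrast were added after seeing the data. Some genes of the lists are not reported here. The functions were tested on simulated data. Python 3.11.15, numpy 2.4.6, pandas 2.3.3 and scipy 1.17.1 were used. Promoter sequences are from RefSeq.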

Additional observations from a re-analysis of the deposited data

How the results depend on the processing

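The 662 higher entries and the lower ones (3.43%) became 1741 and 761 with a mean RPKM of at least 1 or with no filter on low values, where more entries were compared (15057 and 24896). By the mean of log2(RPKM + 1), which weights cells without reads more, they were 2170 and 99, so the split between directions depended on this choice. The 11.3% of entries with a higher share of cells became 17.5% at an RPKM over 1 and 2.57% over 50, and the 0.189% with a lower share became 0.636% over 50. Entries with a lower share were 0.118% after thinning to 100000 reads, 0.317% in E18.5 cells of 18_2 alone and 0.119% without the entries past 2-fold the same way between the P1 groups. Cells with 4500 to 5500 entries detected after thinning gave 2.74% higher and 1.24% lower in share, a range chosen after the data were seen because 5000 to 6000 held 13 E15.5 cells. In the same cells Penk was reversed (-1.23), and 99 of the 100 named genes past 2-fold kept their direction, 77 of them past 2-fold. The other alternatives moved these counts by under 1.5 times. No paired analysis was possible because the result comes from no test. Depth limits low genes. A gene without reads at E15.5 may still have a read in up to 2.13% of such cells by counting error alone, which says nothing of cells that express it unread. Among Th cells the ratios of B2m (0.82), Gfra1 (-0.95), Rab3c (-0.92), Stmn4 (0.89) and Tcf4 (-0.95) were within 2-fold.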

Other observations

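The reads fell on kinds of RNA in different shares. Long intergenic RNA took a median 15.0% of reads per cell at E15.5 and 12.7% at E18.5, but the E18.5 sets stood further apart, at 17.3% (18_1) and 10% (18_2). Ribosomal protein genes took 0.376% and 0.378%, and mitochondrial ribosomal RNA 1.38% and 0.741%. Nrsn2, a neurensin, was over an RPKM of 10 in 27% of cells at E15.5 and 77.7% at E18.5, with means of 21.9 and 87.6. The study picked Nrsn2 as a late gene in cells that include these, so its direction here is not independent evidence.

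Among cells with a Th RPKM of 150 or lower, Gad2 was over 10 in 28.2% (15.0 to 44.9) of 39 cells at E15.5 and 44.9% (30.7 to 59.8) of 49 at E18.5, and Nxph4 in 48.7% and 53.1%. Calb1 was over 10 in 7.69% and 49% of these cells, and Nfib in 84.6% and 55.1%. In the cells above that Th limit, Nfib was over 10 in 58.8% and 26.6% and Calb1 in 17.6% and 76.3%, so both genes had the same direction on either side of the limit.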
